A study of Mus musculus with 60 samples.

Results

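The comparison described here is that of mice heterozygous for the K228E allele of Tbr1 (HT) with wild-type mice (WT), all given lithium. The members were chosen by label: the 5 HT females, 5 HT males, 5 WT females and 5 WT males of the lithium arm, which make 20 of the 60 libraries of the series. All were C57BL/6J mice whose prefrontal cortex was taken on postnatal day 25. Lithium had reached the pups through the milk of the mother for 3 weeks, from day 3 to day 24, so both genotypes carried the drug and neither group was untreated. The labels name no dam or litter. Pups of 1 litter would share the mother's milk, and the tests rest only on the spread among these mice. RNA was sequenced after stranded poly(A) library preparation. The other 40 libraries came from mice of the same genotypes, ages and sexes given fluoxetine or vehicle, and are used only where a difference under lithium is set beside them.

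Tbr1 is a T-box transcription factor of early-born glutamatergic neurons, strongest in layer 6 and the subplate, where it directs deep-layer identity and corticothalamic projection. It binds the scaffold kinase Cask and activates genes such as Reln and Grin2b, and mutations of the human gene are a known cause of autism with intellectual disability. Lithium inhibits glycogen synthase kinase 3, which holds Wnt signalling down, and the inositol phosphatases that recycle inositol for phosphoinositide signalling. The design asks what separates HT from WT cortex when both have had early lithium.

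The K228E allele replaces a lysine with a glutamate in the T-box domain. In the transcript Tbr1-201 (681 coding codons), the K228E codon lies in exon 1 of 6, on chromosome 2 at 61805389 to 61805391 of GRCm38, plus strand. The reference sequence of that stretch of exon 1 (chr2:61805329-61805399) is shown because it places the change 8 bases before the end of the exon, with the lysine codon in capitals:
Tbr1 exon 1: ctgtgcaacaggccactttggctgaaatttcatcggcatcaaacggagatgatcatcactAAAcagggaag
The gene-level values do not separate the mutant from the wild-type transcript, so Tbr1 below is the sum of both alleles and does not check the genotype label.

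Libraries of the lithium arm held 24388174 to 36156697 reads (median 29215471), with a correlation of 0.963 to 0.991 between libraries of 1 group. In 20 of 20 libraries Xist and Y-linked genes fitted the labelled sex. Libraries stood apart along markers of neighbouring tissue. The 7 genes of the olfactory bulb list, which includes Eomes and Tbx21 of mitral and tufted cells and Th of bulb interneurons, had a mean log2(value + 1) of 3.27 to 10.4 in HT and 6.77 to 10.4 in WT. The striatal medium spiny neuron list, which includes the dopamine receptors Drd1 and Drd2, had a mean of 10.5 to 10.6 in 3 libraries (HT female 1, WT female 2 and WT male 2) and of at most 9.06 in the other 17. The oligodendrocyte list was lowest in HT male 3 (9.65) and HT female 5 (10.01). These 2 libraries also had the lowest bulb means of the lithium arm, at 3.27 and 5.88. Their shares of mitochondrially encoded genes were the highest of the arm, at 6.44% and 7.72% of values. Results without these 2 libraries thus do not separate these traits. In bulk tissue, fewer cells of a type and less RNA per cell cannot be told apart.

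**Figure D1:**
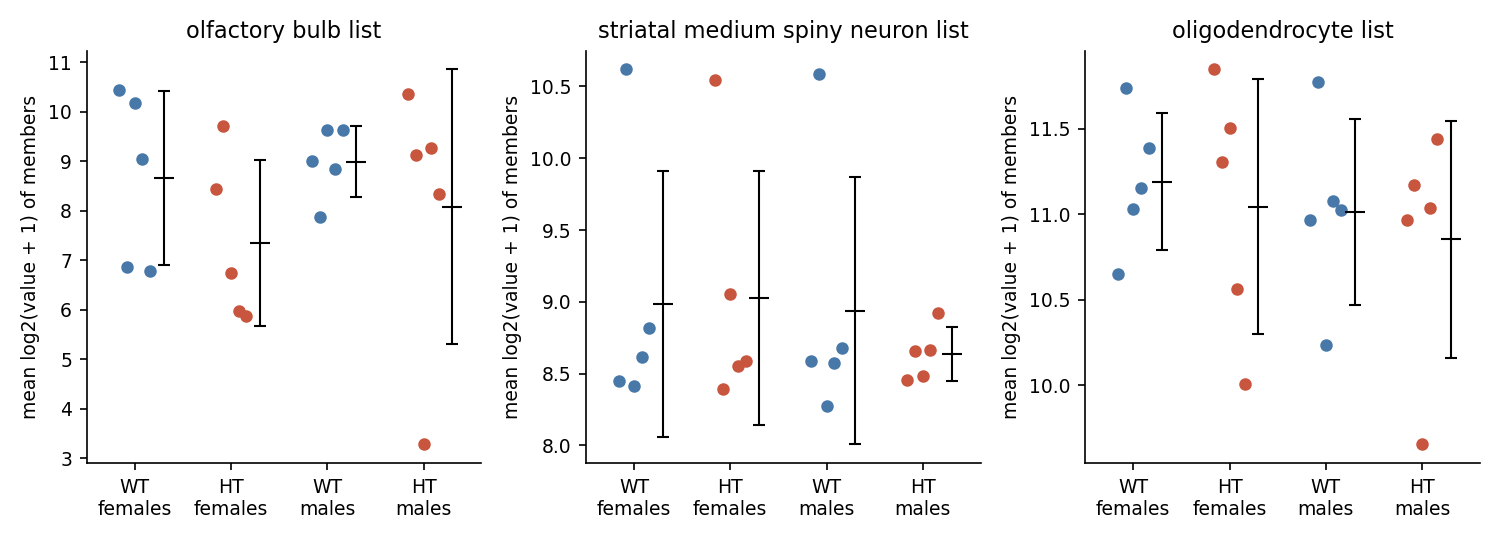
Mean log2(value + 1) of the members of 3 marker lists in each lithium library, by genotype and sex (blue WT, red HT; bars: mean ± SD, n = 5). HT male 3 is lowest for the olfactory bulb list at 3.27, and 1 library in each of 3 groups is above 10.5 for the striatal list.

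No gene was called between HT and WT under lithium. Of 17048 genes tested with limma, 0 (0%) had an adjusted p below 0.05, and the smallest adjusted p was 0.450, for Plcxd2. At an unadjusted p below 0.05 there were 1078 genes (6.32%), of which 632 were higher in HT (3.71%) and 446 lower (2.62%). edgeR's quasi-likelihood test on the recovered reads also called 0 genes, with 1011 at an unadjusted p below 0.05, and DESeq2 called 3 (Plcxd2, Tmem185a and Fbn1). The intervals were narrow for most genes. The 95% interval of the HT to WT ratio lay within 2-fold in either direction for 16475 genes (96.6%) and within 1.5-fold for 14818 (86.9%). The median difference over all genes was 0.0026 on the log2 scale, and the median standard error 0.075.

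Tbr1 itself (ENSMUSG00000035033, chromosome 2, 61802930 to 61814114, plus strand) was higher in HT mice, by 0.47 on the log2 scale (SE 0.15, 95% interval 0.16 to 0.79). In WT females its normalised reads were 1862, 3772, 2139, 3195 and 3883, and in WT males 2766, 3793, 2354, 3519 and 2843. In HT females they were 4344, 3403, 5241, 4172 and 4390, and in HT males 2241, 4289, 4597, 4138 and 4743. Of the 10 HT libraries, 8 were above the highest WT library, while HT male 1 and HT female 2 lay within the WT range. The group means were 2970 ± 928 in WT females, 3055 ± 587 in WT males, 4310 ± 655 in HT females and 4001 ± 1013 in HT males (SD, n = 5 each). Among all genes Tbr1 ranked 99th by p, and limma's adjusted p was 0.762. As a single gene, an exact two-sided permutation of genotype within sex gave p = 0.011 over 63504 arrangements. The difference was 0.59 in females (exact permutation p = 0.032) and 0.36 in males (exact permutation p = 0.167), where 5 against 5 allows no p below 0.0079. The difference between the sexes was 0.22 (SE 0.31), with an adjusted p of 0.978 in limma.

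Tbr1 tended to be lower in libraries with a higher mean of the olfactory bulb list. The lowest HT library, HT male 1, had a bulb mean of 10.4, the highest of its genotype, and the lowest WT libraries, WT females 1 and 3, had bulb means of 10.4 and 10.2. When 2 terms for the bulb list were added to the model, the spread of Tbr1 around the fit narrowed. The difference was then 0.36 with a standard error of 0.050 and an adjusted p of 0.0115 in limma, the only gene called of 17048 (0.00587%). With log2 terms for the bulb, striatum and choroid plexus lists in their place it was 0.37 with an adjusted p of 0.869. The part of bulb RNA in the Tbr1 difference was otherwise not tested.

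**Figure D2:**
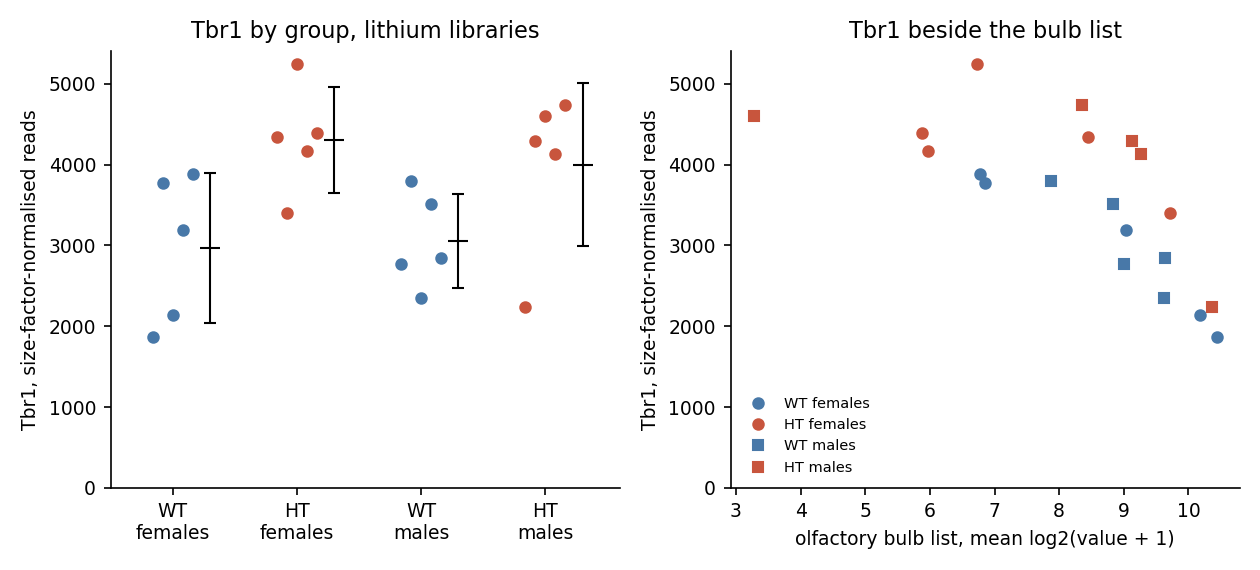
Left, Tbr1 normalised reads in each lithium library by group (blue WT, red HT; bars: mean ± SD, n = 5); right, the same values against the mean log2(value + 1) of the olfactory bulb list. HT males hold 1 library at 2241 with the other 4 at 4138 or more, and libraries with bulb means above 10 have Tbr1 values of 2241 or less.

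The other arms of the study gave separate HT and WT mice for the same gene. Under fluoxetine Tbr1 was 0.36 higher in HT (SE 0.038), a called gene there, with means of 4934 in HT females and 4432 in HT males. Under vehicle, where the bulb list was lower in HT (median -1.47), Tbr1 was 0.82 higher (SE 0.27, adjusted p = 0.236 in limma). The HT minus WT difference under lithium was 0.12 larger than under fluoxetine (SE 0.16, adjusted p = 0.908) and 0.35 smaller than under vehicle (SE 0.33, adjusted p = 0.892). Neither difference was called.

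Genes next to Tbr1 on chromosome 2 were higher in HT on 1 side of it. These neighbours were looked up after Fap had been named by its p-value, so the place of Fap in the count was fixed beforehand. Of 16 tested genes within 2 Mb, 5 had an unadjusted p below 0.05 (6.32% of all genes), all higher in HT (3.71% of all genes) and all downstream: Slc4a10 (0.17), Dpp4 (0.35), Fap (0.41), Ifih1 (0.21) and Gca (0.12), at 0.232 to 0.850 Mb from Tbr1. None was called, and the 10 upstream neighbours had p-values of 0.092 or more. The labels do not say how the K228E line was made or backcrossed.

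Among the 10 higher genes with the smallest p, Plcxd2 came first. Plcxd2 (ENSMUSG00000087141, chromosome 16, 45959263 to 46010218, minus strand) encodes a phospholipase C-like protein. Its normalised reads were 3011, 3494, 3998, 3486 and 3203 in WT females and 4103, 3442, 3533, 4164 and 4421 in WT males. In HT females they were 4362, 4643, 4747, 4774 and 5096, and in HT males 3852, 5271, 4675, 4426 and 5375. All 10 HT libraries were above the WT median and 8 above the highest WT library, with an overlap at HT male 1 and HT female 1. The difference was 0.36 (SE 0.067), 0.46 in females and 0.26 in males. It was called by DESeq2 (0.35, adjusted p = 0.0082), with the fluoxetine libraries added to the limma fit (adjusted p = 0.0047) and in limma without HT male 1 (0.40, adjusted p = 0.028).

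Homer1, a postsynaptic scaffold that ties metabotropic glutamate receptors to intracellular calcium stores, was 0.37 higher (SE 0.085, adjusted p = 0.654 in limma). Its WT values were 4374, 5631, 4855, 4531 and 5532 in females and 6023, 5556, 4712, 4538 and 3888 in males. Its HT values were 5329, 6380, 7389, 7254 and 7329 in females and 6015, 7648, 5531, 5842 and 5402 in males. HT females stood highest as a group, with 4 of 5 above every WT library, whereas in HT males 1 library did. The short activity-induced and the long constitutive Homer1 transcripts are summed in the gene-level value. Crem, a cAMP-responsive transcription factor, ranged from 316 to 376 in WT (median 331) and from 349 to 481 in HT (median 400), with 7 HT libraries above all WT. Necab1, a neuronal EF-hand calcium-binding protein, ranged from 2992 to 3813 in WT (median 3341) and from 3200 to 5021 in HT (median 4123). Lin7a, a PDZ scaffold that binds Cask, ranged from 777 to 889 in WT and from 847 to 963 in HT, a difference of 0.13 (SE 0.032). Nebl, which encodes the actin-binding protein nebulette, was also 0.13 higher (SE 0.031). Tmem185a was 0.15 higher (SE 0.032), and 8 of 10 HT libraries were above every WT library for each of Lin7a, Nebl and Tmem185a.

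The remaining higher genes were Ctla2a, a cysteine protease inhibitor (0.42), the cell-surface protease Fap (0.41) and the keratin Krt77 (0.33). Fap was low, at 51.4 to 72.0 in WT and 58.7 to 97.7 in HT. Ctla2a has a close paralogue, Ctla2b, and how reads were split between them is not given, so its value is uncertain. All 3 overlapped between genotypes.

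The 10 lower genes with the smallest p were led by Ighg2c and Fbn1. Fbn1, which encodes fibrillin 1 of microfibrils, ranged from 269 to 345 in WT (median 311) and from 219 to 301 in HT (median 249), with 8 HT libraries below all WT. Its difference was -0.29 (SE 0.063), -0.42 in females and -0.16 in males. DESeq2 called it (-0.30, adjusted p = 0.037). Col5a1, a collagen V chain, ranged from 689 to 989 in WT and from 578 to 867 in HT, a difference of -0.28 (SE 0.071). Btg2, an activity-induced antiproliferative gene, ranged from 294 to 510 in WT (median 437) and from 227 to 446 in HT (median 297), a difference of -0.46 (SE 0.12). Pik3ip1, an inhibitor of phosphoinositide 3-kinase, was 0.17 lower (SE 0.048), with -0.27 in females and -0.07 in males. The arrestin-domain gene Arrdc2 was 0.42 lower (SE 0.10), with 1 HT library, HT female 1 at 314, above the WT median of 304.

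Ighg2c, an immunoglobulin heavy-chain constant gene, had the largest difference of the 20 at -0.54 (SE 0.11). It was scarce, at 49.1 to 68.6 in WT and 28.8 to 57.9 in HT, and its family members share sequence, so its value is uncertain. Pdzrn4 (-0.22), the transcription factor Ebf4 (-0.23), the endosomal protein Rufy1 (-0.17) and the lysosomal protease Ctsf (-0.09) completed the lower side. None of the 10 was called by limma, and the genotypes overlapped for each.

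**Figure D3:**
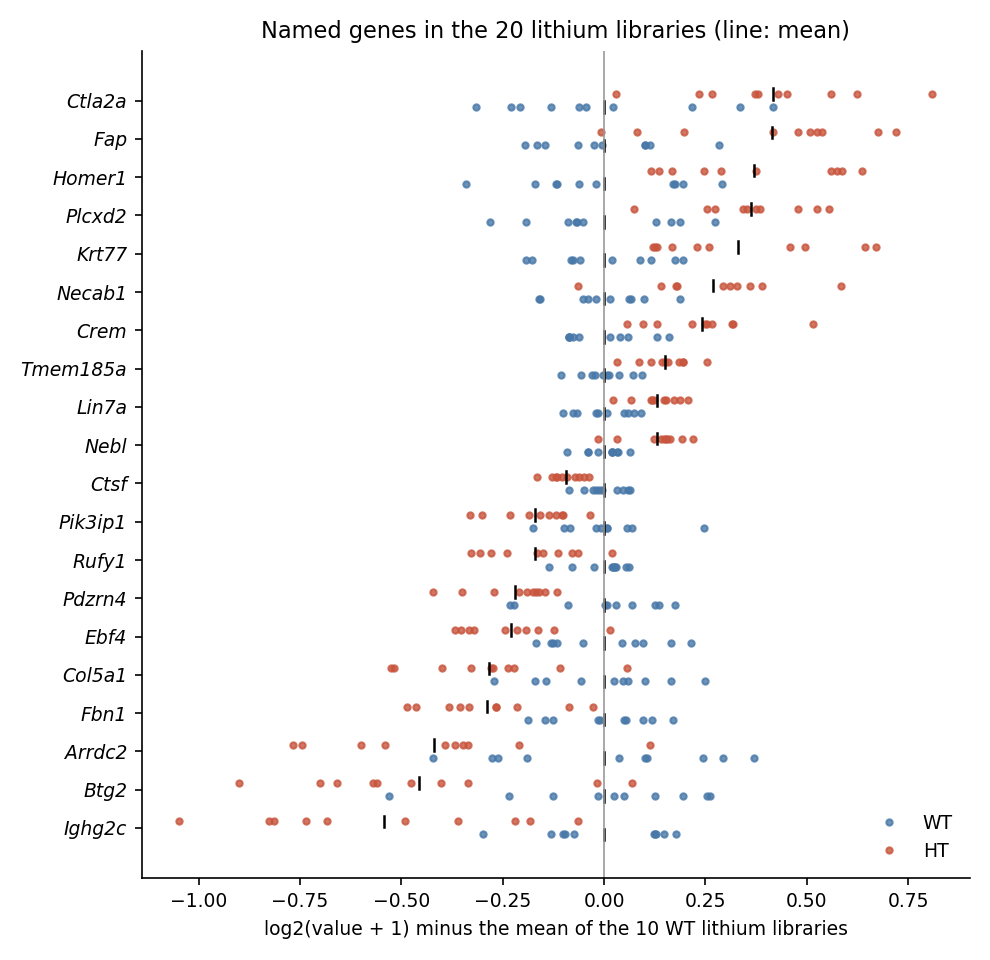
Values of the 10 higher and 10 lower genes with the smallest p in the 20 lithium libraries, as log2(value + 1) minus the mean of the 10 WT libraries (blue WT, red HT; black line: mean). HT and WT points overlap for all 20 genes, and none was called.

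These 20 genes were chosen on the lithium libraries, so their direction was read in the mice of the other arms, which share no library with them. Under fluoxetine all 20 differed in the same direction, where 53.7% of 16768 genes tested in both did, and 57.9% of the 7609 that met the rule's other conditions. Of the 20, 11 had an unadjusted p below 0.05 under fluoxetine (7.2% of all genes there), and 3 were called (0.206% of all genes): Plcxd2 at 0.36, Necab1 at 0.23 and Col5a1 at -0.34. Under vehicle 19 of 20 had the same direction, where 72.7% of 16906 genes did, and 78.4% of the 7608 that met the rule's other conditions. There 11 had an unadjusted p below 0.05 (20.4% of all genes) and 0 were called (0.0116% of all genes). The exception was Tmem185a, at -0.02. Fap was 0.22 higher under fluoxetine and 0.46 higher under vehicle, and Krt77 0.22 and 0.50 higher. Fbn1 was nearer 0 in both arms (-0.05 and -0.06), and Btg2 was -0.01 under fluoxetine and -0.81 under vehicle. Bulb means spanned 3.85 to 8.34 in HT and 4.07 to 7.67 in WT fluoxetine libraries. In vehicle libraries they were less even, at 5.13 to 10.9 in HT and 8.92 to 11.1 in WT. Mitochondrially encoded genes made up 6.31% to 8.85% of values in vehicle males of both genotypes and 4.39% to 6.12% in vehicle females. The part of bulb RNA in the vehicle differences was not tested.

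**Figure D4:**
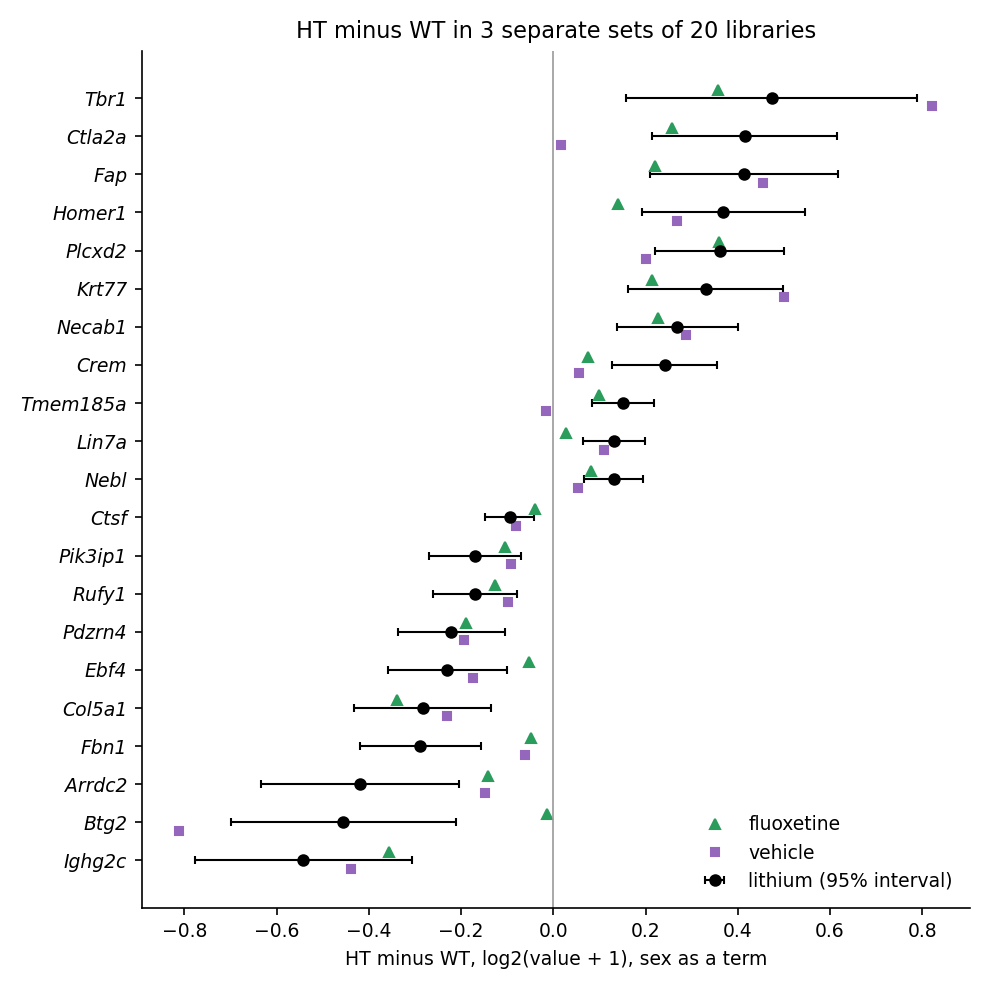
HT minus WT difference of Tbr1 and the 20 genes in log2(value + 1), in 3 sets of 20 libraries that share none: lithium (black, with the 95% interval), fluoxetine (green) and vehicle (purple). The lithium values chose the 20 genes; all 20 fluoxetine points and 19 of 20 vehicle points fall on the same side of 0.

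No gene's genotype difference was shown to depend on the drug. The difference under lithium minus that under fluoxetine had 0 calls among 17472 genes (0%), with 517 at an unadjusted p below 0.05 (2.96%). Against vehicle there were 0 calls among 17562 genes (0%), with 470 at an unadjusted p below 0.05 (2.68%). Leaving out predicted genes and those with a mean below 50 or opposite signs in the sexes, the smallest p-values belonged to Gripap1 (-0.15), a regulator of receptor recycling, against fluoxetine and to the stress kinase Map3k6 (-0.87) against vehicle, with adjusted p-values of 0.904 and 0.892 in limma. edgeR called 0 in both, and DESeq2 called 0 against fluoxetine and 1 against vehicle, the predicted gene Gm12671.

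Sex made no called difference either. In females alone 0 of 17048 genes were called (0%), with 1419 at an unadjusted p below 0.05 (8.32%), and in males 0 (0%), with 234 (1.37%). These unadjusted counts were 1238 in females and 722 in males with the bulb terms, and 1389 and 1154 with library quality weights. The test of the difference between the sexes called 0 genes (0%), with 359 at an unadjusted p below 0.05 (2.11%). edgeR called 0 in each of these 3, and DESeq2 called 2 in females (Plcxd2 and Fbn1) and 0 in the other two. The direction was shared by the sexes for 58.2% of genes. Among females the smallest p-values were for Plcxd2, Fbn1 and Ighg2c, and among males for Ackr3, a chemokine-scavenging receptor (-0.35), and Nebl (0.16). For the difference between the sexes it was Trappc6a, a vesicle-tethering subunit (-0.59, adjusted p = 0.978 in limma).

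Genes that glucocorticoids and FOXO factors induce, the stress-hormone and starvation response, were mostly lower in HT. Of 19 tested, 7 had an unadjusted p below 0.05 and were lower (2.62% of all genes), 0 were higher, and the median was -0.15 against 0.0026 over all genes. Fkbp5, a chaperone that restrains the glucocorticoid receptor, ranged from 1094 to 1937 in WT (median 1439) and from 898 to 2052 in HT (median 1148). For Fkbp5 9 of 10 HT libraries were below the WT median, and the 1 above it was the highest of all 20. The metallothionein Mt2 (-0.25), the NF-kappaB inhibitor Nfkbia (-0.20), the mTOR inhibitor Ddit4 (-0.22), Txnip (-0.26), Cebpd (-0.42) and Mt1 (-0.14) made up the count. Without the 3 striatum-rich libraries 8 of 19 were lower at that level (3.67% of all genes), and without the 2 libraries lowest in oligodendrocyte genes 6 were (2.29%). Under fluoxetine 2 were lower (3.76% of all genes) and 1 higher (3.44%). Under vehicle 5 were lower (12% of all genes) and 1 higher (8.31%). Under lithium 7 were lower in females (627 of all 17048 genes) and 0 in males (108), with medians of -0.17 and -0.09.

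Endoplasmic reticulum chaperones and stress factors were slightly higher in HT. Of 18 tested, 17 were above 0 and 7 had an unadjusted p below 0.05 (3.71% of all genes), with a median of 0.079. Xbp1, the transcription factor spliced when unfolded proteins build up, ranged from 1687 to 1944 in WT (median 1768) and from 1804 to 2208 in HT (median 1906), and all 10 HT libraries were above the WT median. The chaperones and disulphide isomerases Sdf2l1 (0.17), Pdia6 (0.12), Dnajb9 (0.09), Pdia3 (0.08), Hsp90b1 (0.08) and Dnajc3 (0.07) were the others. With the bulb terms 9 of 18 were higher at that level (3.95% of all genes), and under vehicle 6 were (8.31%). Under fluoxetine 1 was (3.44% of all genes). Under lithium 4 were higher in females (792 of all 17048 genes) and 0 in males (126), with medians of 0.09 and 0.05. Of the 82 nuclear-encoded subunits of oxidative phosphorylation, 73 were above 0, as were 8729 of all 17048 genes. In this list 8 had an unadjusted p below 0.05, all higher (3.71% of all genes), led by Ndufc1 of complex I (0.28) and Atp5e of ATP synthase (0.18). That count was 2 without the 2 libraries lowest in oligodendrocyte genes (2.14% of all genes) and 4 without the striatum-rich ones (4.93%). In females 19 of the 82 were higher at that level (792 of all 17048 genes). In males 0 were higher (126) and 1 was lower (108). The medians were 0.086 in females and 0.011 in males.

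Activity-regulated genes lay on both sides of 0. Of 22 tested, 3 were higher at an unadjusted p below 0.05 (3.71% of all genes) and 1 lower (2.62%). Their median was -0.05, and it was 0.10 with the bulb terms, 0.03 without the 3 striatum-rich libraries and 0.13 without the 2 libraries lowest in oligodendrocyte genes. The neurotrophin Bdnf ranged from 505 to 880 in WT (median 701) and from 717 to 1209 in HT (median 912), a difference of 0.41 (SE 0.11), with all 10 HT libraries above the WT median. Egr3, an immediate early transcription factor, was 0.36 higher (SE 0.11) and Homer1 0.37 higher, while Btg2 was on the other side. Of 24 postsynaptic scaffold genes, 3 were higher at that level (3.71% of all genes): Homer1 and the synapse organisers Lrrtm1 (0.17) and Lrrtm3 (0.20). In females 6 were higher at that level (792 of all 17048 genes) and in males 1 was (126). The AMPA receptor auxiliary subunit Cacng2 (0.15) was the only one of 29 glutamate receptor genes at that level, a share near that of all genes. Of 23 presynaptic release genes 21 were above 0 and 0 had an unadjusted p below 0.05 (median 0.046).

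Of 21 markers of layer 6 and the subplate, 14 were below 0 in HT, and 3 of these had an unadjusted p below 0.05 (2.62% of all genes), with a median of -0.25. The 14 layer 5 markers were split, 7 above and 7 below 0, with 0 at an unadjusted p below 0.05 and a median of 0.02. Trpc7, a cation channel, ranged from 138 to 220 in WT (median 161) and from 92.3 to 166 in HT (median 134). The subplate genes Nxph4 (-1.06) and Ccn2 (-0.39) were the others, and Nxph4 ranged from 8.78 to 190 in HT against 91.5 to 244 in WT. The list's mean was lowest in HT male 3 (7.85) and HT female 5 (8.06), the 2 libraries lowest in oligodendrocyte genes. Without them its median was -0.08 and 1 gene was at that level (2.29% of all genes). In females 3 of the list were lower (627 of all 17048 genes) and in males 0 (108). With the bulb terms 2 were lower (576) and 0 higher (673), with a median of -0.095. Under fluoxetine 6 of 21 were lower (3.76% of all genes) and 0 higher (3.44%), with a median of -0.12. Under vehicle 6 were lower (12% of all genes) and 2 higher (8.31%), with a median of 0.04.

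Of 9 genes of Cajal-Retzius cells, the Reln-secreting neurons of layer 1, 3 were lower at an unadjusted p below 0.05 (2.62% of all genes), with a median of -0.65. The p53 relative Trp73 ranged from 19.6 to 94.7 in WT (median 55.0) and from 12.1 to 49.7 in HT (median 26.0), and all 10 HT libraries were below the WT median. Ebf3 (-0.67) and Nhlh2 (-0.65) were lower beside it. In females 2 of the list were lower at that level (627 of all 17048 genes) and in males 0 (108). With the bulb terms the list's median was -0.06, with 3 lower (576 of all 17048 genes) and 1 higher (673) at that level. Without the 3 striatum-rich libraries 5 were lower (3.67% of all genes) and the median was -0.90. Without the 2 libraries lowest in oligodendrocyte genes 0 were at that level (2.29% of all genes), with a median of -0.27. Under vehicle, where the bulb list was also lower in HT (median -1.47), 7 of 9 were lower (12% of all genes). Under fluoxetine, where the bulb list was higher in HT (median 0.46), 0 of 7 were (3.76%). Of 20 upper-layer genes 2 were higher at that level (3.71% of all genes), Calb1 (0.22) and Rorb (0.20). That count was 1 with the bulb terms (3.95% of all genes) and 1 without the 3 striatum-rich libraries (4.93%). It was 0 without the 2 libraries lowest in oligodendrocyte genes (2.14%). Over the alternatives the differences went down to 0.09 for Calb1 and 0.07 for Rorb. Among 26 genes of a list of Tbr1, its partners and reported targets, 2 were higher at that level (3.71% of all genes) and 0 lower. These were Tbr1 itself and Cdh8, a cadherin (0.30, SE 0.091). Leaving Tbr1 aside, Cdh8 alone is near the share of all genes. The median of the 26 was 0.002.

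Inositol recycling and Wnt signalling are pathways that lithium acts on. Of 16 inositol recycling genes 1 was higher at an unadjusted p below 0.05 (3.71% of all genes), the inositol transporter Slc5a3. Slc5a3 ranged from 526 to 815 in WT (median 716) and from 693 to 951 in HT (median 816), a difference of 0.21 (SE 0.074). Inpp5e, a phosphatase of phosphoinositide lipids, was lower at that level (-0.08, 2.62% of all genes). Of 27 Wnt pathway genes 1 was lower, the receptor Fzd1 (-0.15), and 0 higher, with a median of -0.02. The inositol recycling and Wnt counts were near the shares of all genes. Lithium is also known to slow thyroid hormone release. Of 14 thyroid hormone response genes, 3 were higher at that level (3.71% of all genes): Dio2, which makes active hormone in astrocytes (0.21, with all 10 HT libraries above the WT median), the hormone transporter Slco1c1 (0.23) and the receptor Thrb (0.21). Cirbp, a cold-inducible RNA-binding protein, was lower at that level (-0.22, 2.62% of all genes). The thyroid list's median was 0.074. It was 0.012 with the bulb terms and 0.023 without the 2 libraries lowest in oligodendrocyte genes. In females 3 were higher (792 of all 17048 genes) and 1 lower (627), and in males 0 were higher (126) or lower (108). Under fluoxetine 2 were higher (3.44% of all genes) and 1 lower (3.76%). Under vehicle 1 was higher (8.31%) and 2 lower (12%).

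Of 13 endothelium and pericyte genes, 3 were higher at an unadjusted p below 0.05 (3.71% of all genes): the VEGF receptor Kdr (0.27), the tight-junction gene Cldn5 (0.16) and the receptor Tek (0.13). Without the 3 striatum-rich libraries 1 was (4.93% of all genes). In females 2 were higher (792 of all 17048 genes) and in males 0 (126). Under fluoxetine 5 of 13 were higher (3.44% of all genes) and 0 lower (3.76%). Under vehicle 1 was higher (8.31%) and 1 lower (12%). Kdr ranged from 478 to 896 in WT (median 624) and from 587 to 897 in HT (median 758). Of 18 interneuron genes 2 were higher at that level (3.71% of all genes), Crhbp (0.25) and the neuropeptide Npy (0.13). Crhbp, which binds corticotropin-releasing hormone, ranged from 383 to 475 in WT and from 422 to 585 in HT. The interneuron count was 1 without the striatum-rich libraries (4.93% of all genes) and 1 without those lowest in oligodendrocyte genes (2.14%). A count of 1 of 18 is near those shares.

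Among markers of tissue next to the cortex, all 7 olfactory bulb genes were lower in HT, by a median of 1.03 on the log2 scale, with p-values of 0.11 to 0.22. The mitral cell gene Eomes ranged from 58.7 to 1023 in WT and from 1.10 to 754 in HT, and the cadherin-related Cdhr1 from 574 to 7174 and from 24.2 to 6458, both lowest in HT. Tbx21 (-1.18), Th (-1.03), Doc2g (-1.0), Trh (-0.89) and Shisa3 (-0.88) were also lower. Without HT male 3 the differences were -0.74 for Cdhr1, -0.72 for Eomes and -0.45 for Th, and without the 2 libraries lowest in oligodendrocyte genes the list's median was -0.28. Of 12 striatal genes 10 were below 0 and 0 had an unadjusted p below 0.05 (p 0.321 to 0.985): Rgs9 (-0.41), Adora2a (-0.31), Drd2 (-0.28), Penk (-0.28), Drd1 (-0.23), Ppp1r1b (-0.15), Rarb (-0.06), Tac1 (-0.05), Gng7 (-0.04) and Pde10a (-0.01). Foxp1, a transcription factor, was above 0 (0.11). The signs of 7 of these 11 named genes changed when single libraries were left out, and without the 3 striatum-rich libraries the list's median was 0.09. All 14 oligodendrocyte genes were lower, by a median of 0.16, again with 0 at an unadjusted p below 0.05. That median turned to 0.03 with the bulb terms and 0.12 without the 2 libraries lowest in the list. The libraries left out were picked on the striatal and oligodendrocyte lists themselves. The 2 lowest in oligodendrocyte genes, HT male 3 and HT female 5, also had the lowest bulb means of the arm (3.27 and 5.88). The moves of the striatal, oligodendrocyte and bulb lists without these libraries were thus partly fixed in advance. The part of these tissues in the other differences was not tested beyond the alternatives given.

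**Figure D5:**
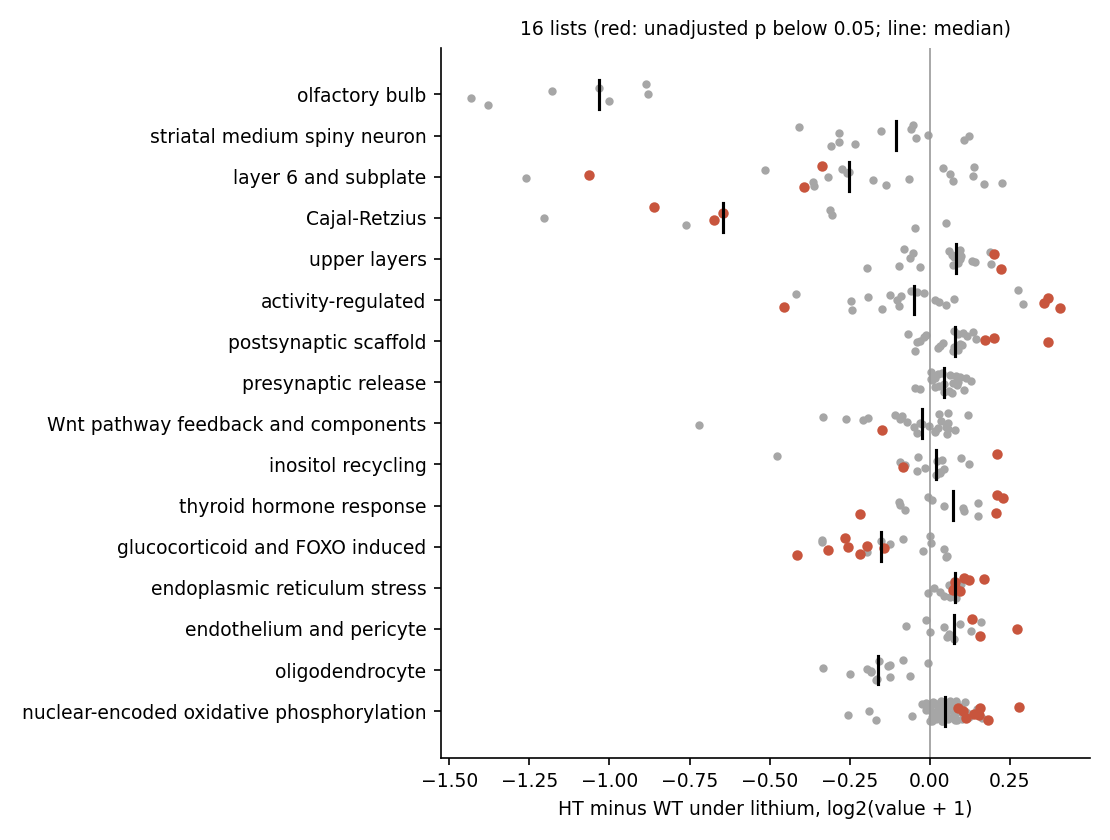
HT minus WT difference under lithium, in log2(value + 1), of each tested member of 16 gene lists (grey; red where the unadjusted p was below 0.05; black line: median). No point is a called gene; the bulb list has the lowest median (-1.03), and glucocorticoid and FOXO genes have 7 red points, all below 0.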

How the data were processed

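Prefrontal cortex RNA-seq of 20 lithium-treated mice was compared by genotype. The deposited signal is the authors' gene-level read number scaled by 1 size factor per library, and whole reads could be recovered from 100% of values (tolerance 1e-06). The submitters' processing notes list Salmon 0.11.2, R 3.6.0, DESeq2 1.19.11 and GRCm38 without saying what each did. Annotation release and gene filters: not given in the sources used here. A gene was tested where 5 or more libraries reached a value of 10. log2(value + 1) was tested with limma 3.58.1 in R 4.3.3 (mean-variance trend, sex as a term, two-sided), with Benjamini-Hochberg adjustment and calls at an adjusted p below 0.05. Differences on this scale understate those of low genes. Each sex and each interaction used 1 mean per group. Alternatives were edgeR 4.0.16 and DESeq2 1.42.0, run on whole reads, other pseudocounts (0.5 and 5), filters and scalings, a replicate block, tissue covariates and leaving out each library. Leaving out the 3 striatum-rich libraries, the 2 with the lowest oligodendrocyte mean, and males from the vehicle interaction were chosen after seeing the data. The test was checked on simulated data. The groups and gene lists were chosen with earlier results of these data known.

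Named genes are Tbr1; the 10 higher and 10 lower genes with the smallest p, since fewer than 10 were called, with a mean value of 50 or more, 1 direction in females and males and no predicted-gene symbol; up to 4 members of each list with the smallest p; the members of the bulb and striatum lists; and 5 genes for each other contrast. Further list members below an unadjusted p of 0.05, genes near Tbr1 and Gm12671 were named after their values were seen. Some genes the rule takes are given only by their list's counts, and some are not reported here. Locations and the transcript sequence come from the GENCODE annotation of GRCm38.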

Additional observations from a re-analysis of the deposited data

Results flagged for a closer look

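In 10 of 104 groups of 5 libraries looked at, 1 library stood apart, with a gap to the nearest of the others above 0.71 of the group's range; chance gives about 1 in 20 groups. Among HT males, replicate 1 had Tbr1 at 2241 (next 4138), replicate 2 had Homer1 at 7648 (next 6015) and replicate 3 had Krt77 at 358 (next 274). Arrdc2 stood at 314 in HT female 1 (next 199), Pdzrn4 at 276 in WT male 2 (next 325) and Pik3ip1 at 933 in WT female 1 (next 826). The remaining 4 were marker list means in log2(value + 1). HT male 3 was low for the olfactory bulb list at 3.27 (next 8.35) and for the oligodendrocyte list at 9.65 (next 10.96). WT female 2 and WT male 2 were high for the striatal list, both at 10.6 (next 8.82 and 8.68).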

How the results depend on the processing

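For HT against WT under lithium the count was 0 in limma, 3 in DESeq2 (Plcxd2, Fbn1 and Tmem185a), 1 with bulb terms (Tbr1), 1 with the fluoxetine libraries in the fit (Plcxd2), and 0 to 1 when each library was left out (1 without HT male 1). In females it was 2 in DESeq2 (Fbn1 and Plcxd2) and 1 with the fluoxetine libraries (Plcxd2); in males 1 with bulb terms (Tbr1). The lithium against vehicle interaction had 1 call in DESeq2, the predicted gene Gm12671 (13.30), which was at 0 in all 5 HT vehicle males and in libraries of 8 other groups. All other settings gave 0. Unadjusted counts for HT against WT under lithium moved more, from 754 to 1935 across settings and from 728 to 2268 when each library was left out. Tbr1 stayed positive in every setting for that comparison, from 0.40 (without WT female 1) to 0.57 (without HT male 1) when each library was left out.

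Replicate numbers did not pair the libraries. Across the 10 same-numbered HT and WT pairs correlations of deviations ran from -0.434 to 0.358, 1 was over 0.1, and 2 libraries correlated best with their own number. With the replicate block 0 genes were called, with 1338 at an unadjusted p below 0.05.

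Of 111 single-gene results 95 kept their sign throughout, and the exceptions were bulb and striatum genes and the Tbr1 interactions. With bulb terms the reversed values were Tbx21 0.038, Th 0.070, Doc2g 0.095, Shisa3 0.099, Foxp1 -0.00080 and Tac1 0.031. For Tbr1 they were -0.18 (females minus males), -0.030 (lithium minus fluoxetine) and 0.087 (lithium minus vehicle). With bulb, striatum and choroid plexus terms they were Tbx21 0.050, Th 0.10, Doc2g 0.090, Shisa3 0.083, Adora2a 0.037, Drd2 0.18, Tac1 0.19, Pde10a 0.14 and Tbr1 lithium minus fluoxetine -0.039. With the striatum term they were Rarb 0.040, Gng7 0.030, Tac1 0.058 and Pde10a 0.12, and with library quality weights Tac1 0.071 and Pde10a 0.040. Without the 3 striatum-rich libraries they were Drd1 0.072, Drd2 0.095, Ppp1r1b 0.030, Rarb 0.13, Gng7 0.082, Tac1 0.20 and Pde10a 0.21. Without the 2 libraries lowest in oligodendrocyte genes they were Drd2 0.039, Tac1 0.10 and Pde10a 0.070. Leaving out each library gave ranges that crossed 0 for Pde10a (-0.19 to 0.19), Tac1 (-0.19 to 0.14), Gng7 (-0.15 to 0.064), Drd1 (-0.46 to 0.038), Drd2 (-0.63 to 0.080), Ppp1r1b (-0.33 to 0.017) and Rarb (-0.20 to 0.10). The bulb and striatum terms are means of these same lists, and the striatum-rich libraries were picked on such a mean. The move of a list's own members under these settings was therefore largely fixed in advance. Why the other values moved was not tested. Genes with few reads, such as Fap and Ighg2c, carry more relative counting error. Their standard errors (0.097 and 0.113) were still below those of Tbr1 (0.151) and Btg2 (0.117), which had more reads.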
